A study of Mus musculus with 10 samples.

Results

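The genes of the aminoacyl-tRNA synthetases, the enzymes that load each transfer RNA with its amino acid, were compared between the gastrocnemius muscle of wild-type mice labelled Sham (5 libraries) and HLI (5 libraries). HLI is taken here as hindlimb ischaemia, in which blood flow to a hind limb is cut by surgery, with Sham as the operated control; the labels do not spell the letters out and give no time after surgery, age or sex. Members were chosen by name alone: a symbol of 1 capital letter followed by "ars" and then nothing or 1, 2, a or b, together with Eprs or Eprs1, with at least 50 counts summed over the 10 libraries. This rule found 37 of the 21956 genes in the table. The 20 genes whose symbol does not end in 2 are called cytosolic and the 17 whose symbol ends in 2 mitochondrial. All 37 passed the filter on low counts that left 13404 genes to test. Messenger RNA was measured by poly(A)-selected RNA sequencing of whole muscle, and the labels do not state whether replicates are different animals; each p-value therefore measures only the spread between these samples. In whole muscle, fewer cells of a type and less RNA per cell cannot be told apart.

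Each synthetase recognises 1 amino acid and its transfer RNAs and joins them with energy from ATP, so that the ribosome receives correctly charged transfer RNA. The enzymes fall into classes I and II, which differ in the fold of the catalytic domain. In the cytosol of animal cells several of them are held together with scaffold proteins in the multisynthetase complex, and the glutamate and proline activities are fused in 1 protein, Eprs. Mitochondria translate their own messages and use a separate set of enzymes, encoded in the nucleus and imported, while Gars and Kars each supply both compartments from 1 gene. Many cytosolic members are known targets of ATF4, a transcription factor made when amino acids run short or the endoplasmic reticulum is stressed. ATF4 binds CARE elements, whose core is TGATGNAA.

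Libraries are named by group and replicate number, as in Sham-1. They held 16556385 to 22136299 estimated counts each. HLI-3 stood apart: among the HLI libraries it had the lowest score of 12 fast muscle fibre markers (-1.05, against -0.32 to 0.30 in the other HLI libraries and -0.02 to 0.47 in Sham), where a score is the mean over genes of log2 CPM (counts per 1000000) after subtraction of each gene's 10-library mean. Sham-1 was the lowest Sham library in 21 members. On CPM, HLI-3 was the lowest of all 10 libraries in 23 of the 37 members (62.2%) and in 26.5% of all genes tested. CPM depends on the edgeR scaling factor, which was 1.23 in HLI-3 and 0.91 to 1.08 in the other libraries. The muscle label held in every library, since the 12 fast fibre markers together made up 140466 to 181398 TPM (transcripts per 1000000) in Sham and 88069 to 150207 in HLI, and none of them was at 0. Across all genes, edgeR called 0 of 13404 genes at an adjusted p under 0.05 (0%), while 2262 (16.9%) had an unadjusted p under 0.05 and DESeq2 called 0.313% of 14397 genes.

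In TPM, which corrects for gene length and so allows genes to be compared, the cytosolic members ranged in Sham from 16.0 ± 1.49 for the valine enzyme Vars to 90.4 ± 7.89 for the serine enzyme Sars (mean ± SD, n = 5), with a median of 38.9. The lysine enzyme Kars, at 89.8 ± 9.34 TPM, lay next to Sars and did not differ from it beyond the spread. The mitochondrial members were lower, from 2.27 ± 0.354 TPM for the methionine enzyme Mars2 to 30.0 ± 1.07 for the isoleucine enzyme Iars2, with a median of 9.75. For 17 amino acid activities both a cytosolic and a mitochondrial gene were among the members, and the cytosolic gene had the higher TPM in every library in 14 of them; Eprs enters 2 of the pairs, with Ears2 and with Pars2. The exceptions were phenylalanine, threonine and isoleucine. There the log2 ratio of cytosolic to mitochondrial TPM averaged -0.23 ± 0.16 for Farsa over Fars2, 0.20 ± 0.20 for Tars over Tars2 and 0.45 ± 0.14 for Iars over Iars2 in Sham (SD, n = 5). Farsa encodes only the alpha subunit of the cytosolic phenylalanine enzyme, whose beta subunit Farsb was at 70.9 ± 5.03 TPM. At the other end, Mars1 stood 16.2-fold above Mars2.

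**Figure D1:**
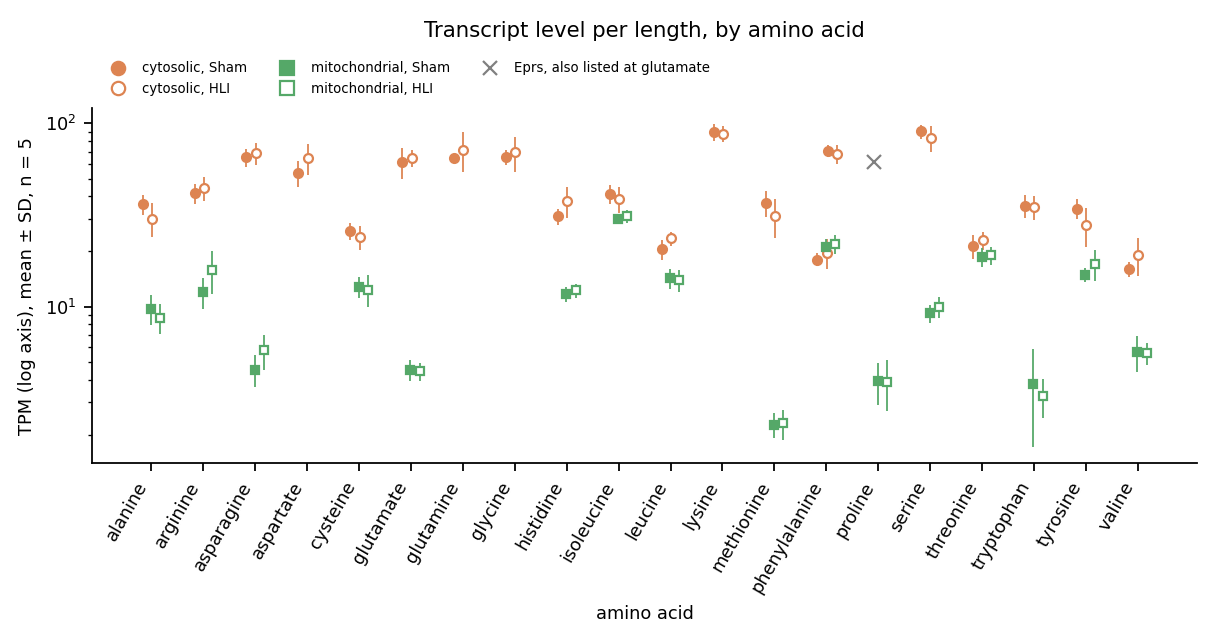
Mean TPM ± SD (n = 5) of the members (1 of 37 not drawn) by amino acid on a log axis, with cytosolic genes as circles, mitochondrial genes as squares, Sham filled and HLI open. Cytosolic genes run from Vars (16.0 TPM in Sham) to Sars (90.4 TPM), mitochondrial ones from Mars2 (2.27 TPM) to Iars2 (30.0 TPM).

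No synthetase passed the edgeR test between HLI and Sham: 0 of 37 members had an adjusted p under 0.05, and the smallest was 0.29. DESeq2 also called 0 of them, with a smallest adjusted p of 0.19. Small differences ran mostly one way on the CPM scale. Fitted log2 fold changes, HLI over Sham, were below 0 in 32 of 37 members, against 46.2% of all genes tested, and their median was -0.17 over the members and 0.03 over all genes. That direction depends on the scale: on log2(TPM + 1), with no further scaling, 16 of 37 members were below 0 and their median was 0.030. On that scale 3243 of 13404 genes were below 0 and the median of all genes was 0.19. Relative to all genes the cytosolic median was then -0.11 and the mitochondrial median -0.17, so the members' position below the bulk of genes was present on both scales. In 20 cytosolic members 5 were lower in HLI at an unadjusted p under 0.05, beside 6.15% of all genes, and 0 were higher, beside 10.7%. With 1 library left out the count of 5 ran from 0 (without Sham-2, where 2.86% of all genes were lower at that p) to 9 (without HLI-1, where 6.25% were). In 17 mitochondrial members 0 had an unadjusted p under 0.05 in either direction. The libraries of the groups overlapped in CPM for all 37 members, where 0.873% of all genes were lower and 0.776% higher in HLI without overlap.

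The synthetases' summed share of all transcripts overlapped between the groups. The 37 members summed to 1014 to 1198 TPM in the Sham libraries and 1039.7 to 1300.3 in the HLI libraries. Of this, the cytosolic genes made 841 to 1002 TPM in Sham and 851 to 1089 in HLI, and the mitochondrial genes 173 to 197 and 189 to 211. HLI-3, the lowest library in 23 members on CPM, summed to 1143 TPM over the 37 members, within the Sham range. Its place thus depends on the scale and on the gene, and a sum does not show the order gene by gene. In TPM, HLI-3 was still the lowest library for Aars (25.8), Mars1 (24.1), Yars (20.3) and Lars2 (11.2). It was the highest library in TPM for Dars (81.5) and Nars (79.3).

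**Figure D2:**
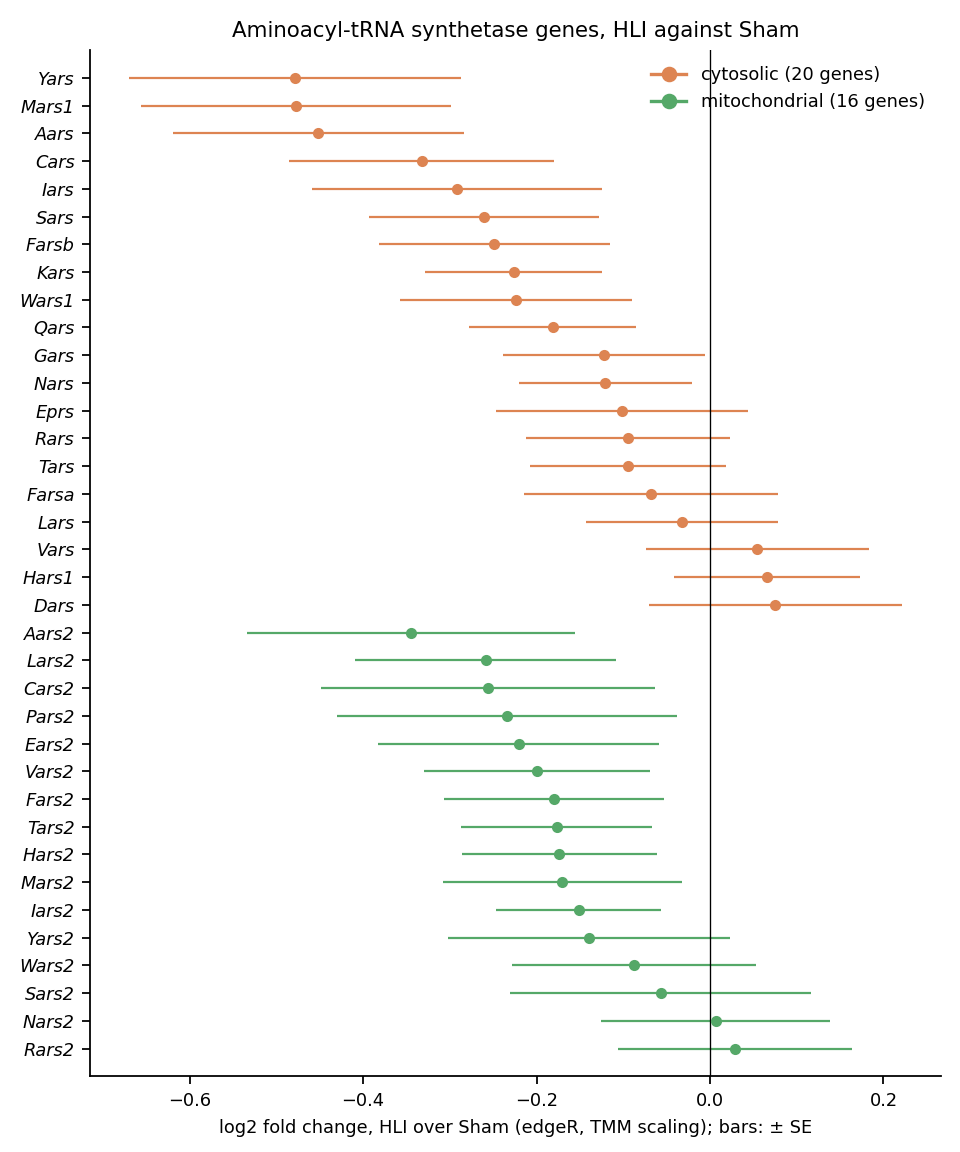
Log2 fold change of HLI over Sham from edgeR on the CPM scale, with bars of 1 standard error, cytosolic above mitochondrial; 1 of the 37 members is not drawn. On this scale 32 of 37 members lie below 0, beside 46.2% of all genes tested. On unscaled log2(TPM + 1) 16 of 37 do, beside 3243 of 13404 genes. No adjusted p by edgeR is below 0.29.

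Aars, which charges alanine transfer RNA, stood at 96.4, 143, 125, 125 and 126 CPM in Sham-1 to Sham-5 and at 120.1, 85.8, 63.3, 100.2 and 80.3 CPM in HLI-1 to HLI-5. All 5 HLI libraries lay below the Sham median, but HLI-1 and HLI-4 lay within the Sham range, whose floor was set by Sham-1. The means were 123 ± 16.6 CPM for Sham against 89.9 ± 21.4 for HLI (SD, n = 5), and the log2 fold change was -0.45 (SE 0.17) with an unadjusted p of 0.0195 and an edgeR adjusted p of 0.29. On log2(TPM + 1) the difference was -0.26 with an unadjusted p of 0.083.

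Mars1, which charges methionine transfer RNAs including the initiator that starts every cytosolic protein, showed the same order of libraries at its ends. Its values were 48.4, 73.4, 61.1, 61.0 and 72.3 CPM in the Sham libraries and 58.0, 43.6, 30.3, 55.2 and 40.1 CPM in HLI, by replicate number. HLI-3 was again the lowest and Sham-2 the highest, and HLI-1 and HLI-4 lay inside the Sham range. The means were 63.2 ± 10.2 CPM for Sham against 45.4 ± 11.3 for HLI (SD, n = 5), and the log2 fold change was -0.48 (SE 0.18) with an unadjusted p of 0.021 and an adjusted p of 0.29 by edgeR.

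Yars, the tyrosine enzyme, had the lowest fitted value of the 37, at -0.48 (SE 0.19), with an unadjusted p of 0.028 and an adjusted p of 0.29 by edgeR. It stood at 49.6, 69.6, 54.4, 55.7 and 65.8 CPM in the Sham libraries and 55.9, 39.8, 25.2, 51.6 and 39.4 CPM in HLI. HLI-2, HLI-3 and HLI-5 lay below every Sham library, and HLI-1 was above the median of Sham. Without HLI-3 the log2 fold changes were -0.35 for Aars, -0.36 for Mars1 and -0.34 for Yars, with unadjusted p of 0.036, 0.038 and 0.04. Without HLI-1 they were -0.58, -0.58 and -0.60.

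**Figure D3:**
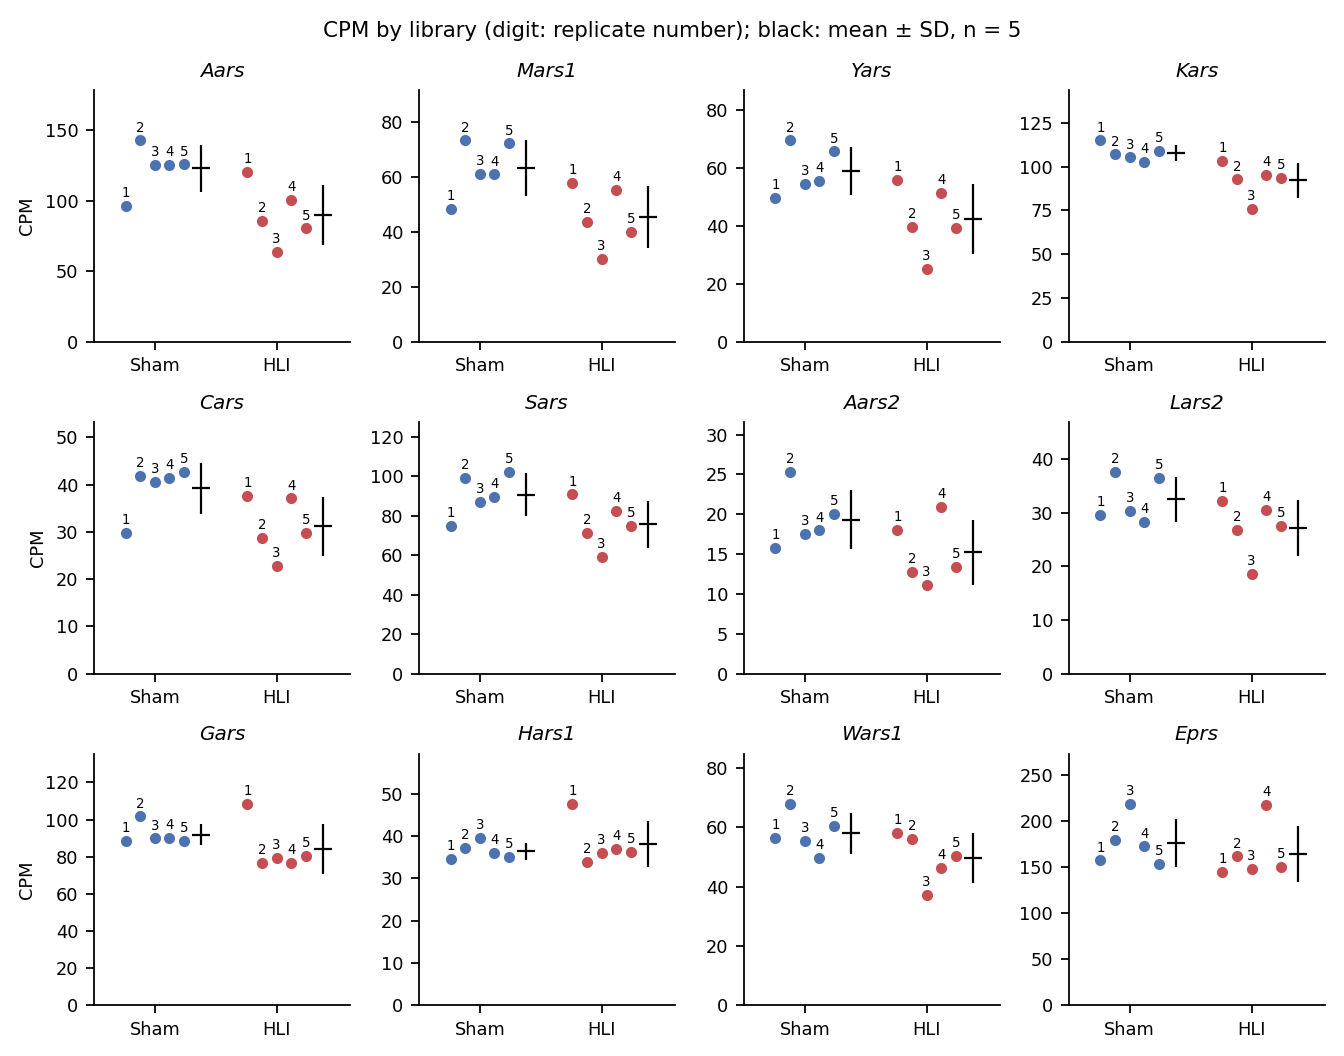
CPM of 12 members in each library, with numbered points for the 5 Sham and 5 HLI libraries and the mean ± SD in black. In Aars, Mars1, Yars, Cars and Sars, HLI-3 is the lowest point and HLI-1 lies inside the Sham range, while in Gars and Hars1 it is the highest; the groups overlap in every panel.

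Promoter windows are shown for members that hold the CARE core, because they include members with the lowest fold changes and others near 0. Windows are RefSeq sequences of the build GRCm38.p6, from 250 bases before to 50 after the transcript start, written 5′ to 3′ on the gene's strand. They matched 27 of the 37 members by symbol, 13 cytosolic and 14 mitochondrial. The core TGATGNAA was searched on both strands; capitals mark it, and in Tars and Iars2 they also mark GCGCANGCG, a site of NRF1, a factor of many genes for mitochondrial proteins.
Aars (chr8:111033592-111033891, forward strand): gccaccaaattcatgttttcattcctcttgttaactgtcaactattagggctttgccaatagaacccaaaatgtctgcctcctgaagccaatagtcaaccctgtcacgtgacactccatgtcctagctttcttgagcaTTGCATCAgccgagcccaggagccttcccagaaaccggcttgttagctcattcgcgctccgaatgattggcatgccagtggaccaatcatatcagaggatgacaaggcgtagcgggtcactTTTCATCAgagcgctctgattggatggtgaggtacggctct
Yars (chr4:129189653-129189952, forward strand): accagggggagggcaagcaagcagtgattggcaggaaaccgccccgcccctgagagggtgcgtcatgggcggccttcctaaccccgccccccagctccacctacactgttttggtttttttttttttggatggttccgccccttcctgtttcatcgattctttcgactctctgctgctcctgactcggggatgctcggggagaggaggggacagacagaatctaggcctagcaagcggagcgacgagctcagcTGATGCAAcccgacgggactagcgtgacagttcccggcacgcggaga
Iars (chr13:49681880-49682179, forward strand): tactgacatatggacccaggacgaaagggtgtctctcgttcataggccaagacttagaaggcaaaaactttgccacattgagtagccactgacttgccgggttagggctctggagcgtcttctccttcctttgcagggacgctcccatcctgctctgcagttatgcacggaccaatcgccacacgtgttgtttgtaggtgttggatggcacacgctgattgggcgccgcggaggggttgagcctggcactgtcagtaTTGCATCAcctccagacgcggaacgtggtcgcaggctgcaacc
Gars (chr6:55037751-55038050, forward strand): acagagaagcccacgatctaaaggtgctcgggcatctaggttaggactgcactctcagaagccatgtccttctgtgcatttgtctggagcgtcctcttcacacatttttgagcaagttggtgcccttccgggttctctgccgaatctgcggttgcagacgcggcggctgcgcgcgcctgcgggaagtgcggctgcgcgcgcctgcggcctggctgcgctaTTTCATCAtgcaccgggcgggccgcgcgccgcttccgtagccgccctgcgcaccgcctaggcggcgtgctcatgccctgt
Tars (chr15:11399609-11399908, reverse strand): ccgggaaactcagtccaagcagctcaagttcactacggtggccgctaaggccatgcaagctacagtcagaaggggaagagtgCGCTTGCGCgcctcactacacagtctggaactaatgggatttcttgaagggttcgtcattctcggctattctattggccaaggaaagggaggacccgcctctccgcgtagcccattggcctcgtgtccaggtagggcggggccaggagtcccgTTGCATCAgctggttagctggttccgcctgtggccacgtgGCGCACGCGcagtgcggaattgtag
The core was in 5 of the 13 cytosolic windows and 0 of the 14 mitochondrial ones, and in 3.97% of all 32851 windows of this length. In Aars it occurred at 2 positions, beginning 112 bases before the start and at base 10 of the transcript, both on the opposite strand. In Gars and Tars it began 30 and 15 bases before the start, and in Iars and Yars at bases 8 and 4 of the transcript. The log2 fold changes of these 5 members ran from -0.48 in Yars to -0.094 in Tars, with a median of -0.29. The 8 other matched cytosolic members ran from -0.48 in Mars1 to 0.075 in Dars, with a median of -0.20, and the ranges overlapped. Mars1, whose values lay beside those of Yars, held neither set of letters in this window, and Iars2 held the NRF1 letters.
Mars1 (chr10:127311737-127312036, reverse strand): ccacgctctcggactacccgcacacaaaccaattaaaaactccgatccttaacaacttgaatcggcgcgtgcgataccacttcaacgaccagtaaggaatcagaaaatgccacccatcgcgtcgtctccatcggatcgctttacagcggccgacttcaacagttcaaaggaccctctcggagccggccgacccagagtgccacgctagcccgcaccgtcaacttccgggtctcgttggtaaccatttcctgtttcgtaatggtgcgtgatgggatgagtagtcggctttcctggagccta
Iars2 (chr1:185329352-185329651, reverse strand): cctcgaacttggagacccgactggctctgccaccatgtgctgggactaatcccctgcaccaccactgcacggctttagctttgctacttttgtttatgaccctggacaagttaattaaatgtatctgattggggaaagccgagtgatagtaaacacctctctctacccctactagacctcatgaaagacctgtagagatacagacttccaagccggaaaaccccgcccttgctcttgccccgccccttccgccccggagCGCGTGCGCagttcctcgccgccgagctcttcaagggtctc
The NRF1 letters were in 3 of 13 cytosolic windows (Tars, Farsb and Kars), in 4 of 14 mitochondrial windows (Iars2, Wars2, Vars2 and Mars2) and in 6.25% of all windows. A match describes the letters of a window and shows no binding.

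Kars, the lysine enzyme of cytosol and mitochondria, was the least variable of the members with an unadjusted p under 0.05. It stood at 115, 107, 105, 102 and 109 CPM in the Sham libraries and 103, 92.6, 75.7, 95.3 and 93.3 CPM in HLI. On CPM, HLI-1 alone lay within the Sham range, and the other 4 lay below every Sham library. In TPM only HLI-4, at 77.2, lay below the lowest Sham library, at 78.3. The TPM means were 89.8 ± 9.34 for Sham and 87.7 ± 8.74 for HLI (SD, n = 5). The means were 108 ± 4.69 CPM for Sham against 92.0 ± 10.1 for HLI, with a log2 fold change of -0.23 (SE 0.10), an unadjusted p of 0.047 and an adjusted p of 0.29 by edgeR. Without HLI-3 the unadjusted p was 0.085.

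Cars, the cysteine enzyme, stood at 29.7, 41.9, 40.6, 41.3 and 42.6 CPM in the Sham libraries and 37.5, 28.7, 22.7, 37.1 and 29.7 CPM in HLI. Sham-1 was far below the other 4 Sham libraries and overlapped the HLI range. The log2 fold change was -0.33 (SE 0.15) with an unadjusted p of 0.0499, and it was -0.42 without Sham-1 and -0.24 without HLI-3 (unadjusted p 0.11).

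Sars, which charges serine transfer RNAs and also puts serine on the selenocysteine transfer RNA, stood at 74.8, 99.3, 87.0, 89.6 and 102 CPM in the Sham libraries and 90.8, 71.2, 59.0, 82.6 and 74.6 CPM in HLI. HLI-1 lay near the Sham mean and 3 HLI libraries lay below all of Sham. The means were 90.6 ± 10.8 CPM for Sham against 75.6 ± 12.0 for HLI, and the log2 fold change was -0.26 (SE 0.13) with an unadjusted p of 0.073 by edgeR.

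Qars, the glutamine enzyme, stood at 82.2, 88.5, 76.2, 84.7 and 88.2 CPM in the Sham libraries and 82.6, 68.6, 66.5, 77.1 and 75.4 CPM in HLI. Its 5 HLI libraries all lay below the Sham median, with 3 below the lowest Sham library. The log2 fold change was -0.18 (SE 0.10) with an unadjusted p of 0.084, and on log2(TPM + 1) it was 0.13, so its sign differed between the scales. Iars at -0.29 (SE 0.17) and Farsb at -0.25 (SE 0.13), the enzyme of isoleucine and the beta subunit of the phenylalanine enzyme, also had HLI-3 as their lowest library, and both kept a negative sign on log2(TPM + 1). Without HLI-3 they were -0.17 and -0.15.

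Wars1, the tryptophan enzyme, is known to be induced by interferon-γ. It stood at 56.3, 67.9, 55.3, 49.5 and 60.5 CPM in the Sham libraries and 58.1, 56.0, 37.2, 46.3 and 50.3 CPM in HLI, a log2 fold change of -0.22 (SE 0.13) with an adjusted p of 0.36 by edgeR. On CPM, HLI-3 was the lowest library for Wars1, without which the value was -0.14, and 3 HLI libraries lay within the Sham range. Over the same libraries 17 of 17 tested interferon-induced genes were above 0, beside 7210 of 13404 genes tested. Of the 17, 9 were higher at an unadjusted p under 0.05 by edgeR, beside 10.7% of all genes. Without HLI-3, 3 were, beside 691 of 13404 genes. The score of the interferon-induced genes was highest in HLI-3, at 0.73. Among them were Zbp1 (1.15), a sensor of unusual nucleic acids, Ifit1 (1.07), Irf7 (0.88) and the immunoproteasome subunit Psmb8 (0.42), in log2. On CPM, Wars1 had its lowest level in the library where the interferon-induced genes had their highest score. In TPM that was not so: Wars1 was at 32.5 in HLI-3, above Sham-4 at 27.6 and HLI-4 at 27.7. A link between Wars1 and the interferon-induced genes was not tested.

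Gars, the glycine enzyme of both compartments, stood at 88.5, 102, 89.9, 90.1 and 88.5 CPM in the Sham libraries and 108, 76.9, 79.1, 76.8 and 80.3 CPM in HLI. On CPM, HLI-1 lay above every other library, and the other 4 HLI libraries lay below every Sham library. In TPM this separation was absent. HLI-1 at 90.4 and HLI-3 at 77.9 TPM lay above the Sham range of 58.6 to 72.5, and only HLI-4, at 53.5, lay below it. The means of 91.7 ± 5.62 CPM for Sham against 84.3 ± 13.6 for HLI (SD, n = 5) gave a log2 fold change of -0.12 (SE 0.12) with an adjusted p of 0.55 by edgeR; without HLI-1 it was -0.23 with an unadjusted p of 0.028.

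HLI-1 was also the highest library for Hars1, the histidine enzyme, at 47.6 CPM, and for Vars at 51.8 CPM, where the other 9 libraries lay between 33.9 and 39.6 CPM for Hars1 and between 33.6 and 41.9 CPM for Vars. It was highest for Farsa (-0.068) and for the leucine enzyme Lars (-0.032) as well. Log2 fold changes were 0.066 (SE 0.11) for Hars1 and 0.054 (SE 0.13) for Vars. Among the HLI libraries HLI-1 was the highest in 15 of 20 cytosolic and 4 of 17 mitochondrial members, whereas HLI-4 was the highest in 4 cytosolic and 8 mitochondrial members. HLI-1 had the highest macrophage marker score (1.30) and HLI-4 the lowest of the HLI group (-0.79). HLI-3 had the next highest macrophage score (0.88) but the lowest score of the cytosolic members (-0.37). HLI-1 was also the highest library for the neutrophil (2.66) and erythroid (1.83) marker scores. The part of cell content in these levels was not tested.

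Eprs, the fused enzyme of glutamate and proline, stood at 157, 179.6, 218, 172 and 154 CPM in the Sham libraries and 144, 161, 148, 217 and 150.0 CPM in HLI. In TPM, Eprs averaged 61.4 ± 11.9 in Sham (SD, n = 5), above the cytosolic median of 38.9 and below Sars at 90.4. It showed another order of libraries: HLI-4 was the highest of its group and HLI-1 the lowest. The log2 fold change was -0.10 (SE 0.15) with an adjusted p of 0.69 by edgeR. Dars, the aspartate enzyme of the same complex, shared these extremes, with 92.9 CPM in HLI-4 and 54.8 CPM in HLI-1, and a log2 fold change of 0.075 (SE 0.15). On CPM, the arginine enzyme Rars was also highest in HLI-4, with a log2 fold change of -0.095. In TPM, HLI-3 was the highest library for Dars (81.5, with 71.6 in HLI-4) and for Rars (52.5, with 46.8 in HLI-4). The remaining cytosolic members were the asparagine enzyme Nars at -0.12 and the threonine enzyme Tars at -0.094.

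**Figure D4:**
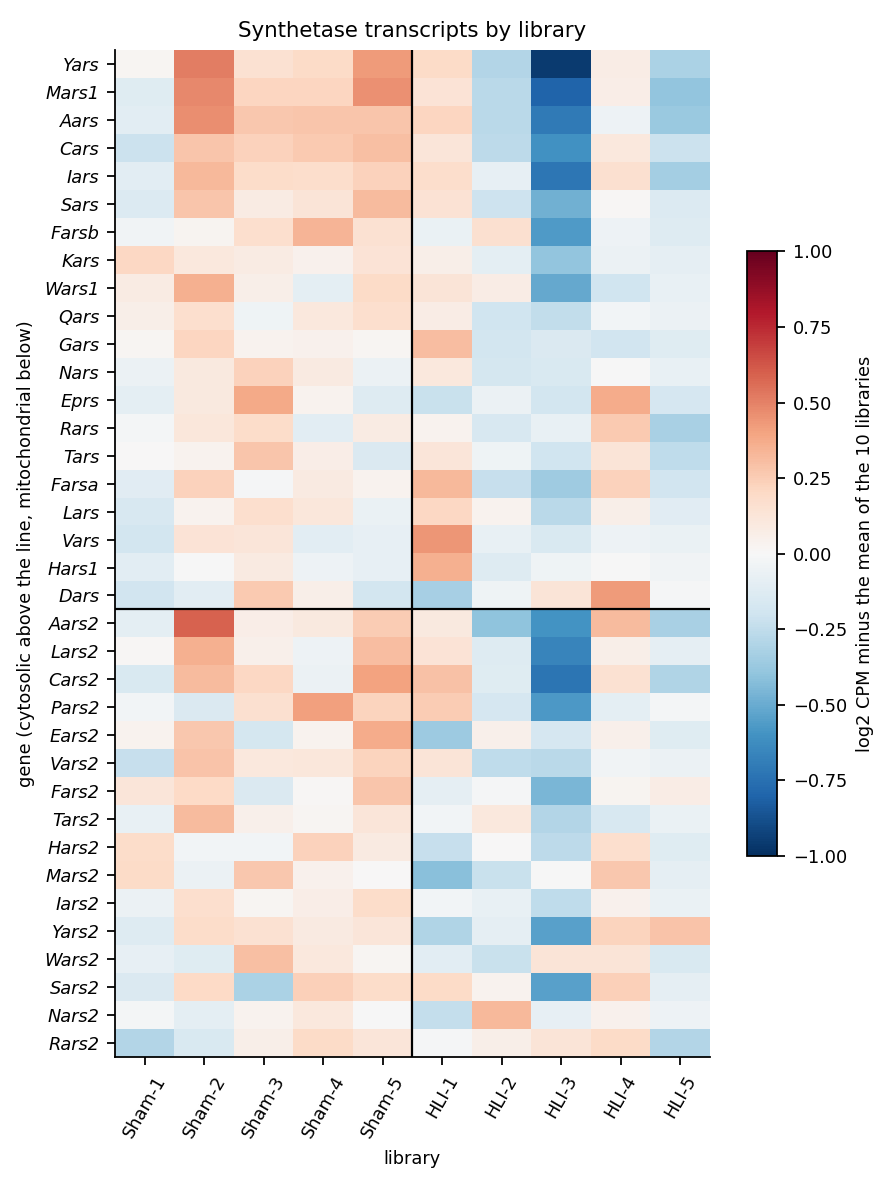
Log2 CPM of the members (1 of 37 not drawn) in each library relative to the gene's mean over the 10 libraries, from -1 to 1, cytosolic above mitochondrial. HLI-3 is the lowest column in 23 of 37 members, and HLI-1 is the highest HLI column in 15 of 20 cytosolic and 4 of 17 mitochondrial members.

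Among the mitochondrial members the smallest unadjusted p was that of Aars2, the alanine enzyme, at 0.094. It stood at 15.7, 25.3, 17.6, 18.0 and 20.1 CPM in the Sham libraries and 18.0, 12.8, 11.1, 20.9 and 13.4 CPM in HLI. HLI-2, HLI-3 and HLI-5 lay below every Sham library and HLI-1 and HLI-4 within the Sham range. The means of 19.3 ± 3.67 CPM for Sham against 15.2 ± 4.08 for HLI (SD, n = 5) gave a log2 fold change of -0.34 (SE 0.19) with an adjusted p of 0.33 by edgeR, and without Sham-2, its highest library, it was -0.23.

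Lars2, the leucine enzyme, stood at 29.7, 37.6, 30.4, 28.3 and 36.4 CPM in the Sham libraries and 32.3, 26.8, 18.5, 30.6 and 27.6 CPM in HLI. Its HLI-3 value was the lowest of the 10 and its log2 fold change was -0.26 (SE 0.15) with an unadjusted p of 0.11. Without HLI-3 it was -0.15.

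Tars2, for threonine, stood at 22.2, 29.1, 24.2, 23.7 and 25.4 CPM in the Sham libraries and 22.9, 25.2, 19.0, 20.8 and 22.3 CPM in HLI, a log2 fold change of -0.18 (SE 0.11). HLI-2 lay above the Sham median here, and without Sham-2 the value was -0.12. Iars2, the most abundant mitochondrial member, stood at 75.8, 88.5, 80.0, 82.4 and 89.4 CPM in the Sham libraries and 77.5, 74.9, 66.0, 81.3 and 75.1 CPM in HLI, a log2 fold change of -0.15 (SE 0.095). On CPM, all 5 HLI libraries were below the Sham median of Iars2, 3 of them below its lowest Sham library. In TPM, HLI-4 at 27.2 lay below the Sham range of 29.1 to 31.7, and HLI-1, HLI-3 and HLI-5 lay above it.

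Ears2 charges both glutamate and glutamine transfer RNAs in mitochondria, where the GatCAB amidotransferase then converts the latter. It stood at 5.15, 6.05, 4.45, 5.15 and 6.49 CPM in the Sham libraries and 3.91, 5.19, 4.48, 5.21 and 4.62 CPM in HLI, a log2 fold change of -0.22 (SE 0.16). Its lowest library was HLI-1, not HLI-3. Of 13 tested mitochondrial translation factors and amidotransferase subunits 12 were below 0 on the CPM scale, beside 46.2% of all genes tested. The median of the 13 was -0.17. On log2(TPM + 1) 7 of 13 were below 0, beside 3243 of 13404 genes tested. At an unadjusted p under 0.05 were Gatb (-0.26), a subunit of GatCAB, and the ribosome recycling factor Gfm2 (-0.35); without HLI-3 none was.

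Other mitochondrial members had fitted log2 fold changes of -0.26 for Cars2, -0.23 for Pars2, -0.20 for Vars2, -0.18 for Fars2, -0.17 for Hars2 and -0.17 for Mars2. Those of Yars2, Wars2, Sars2, Nars2 and Rars2 were -0.14, -0.088, -0.057, 0.0066 and 0.029. Without HLI-3, Cars2 was -0.13, Pars2 -0.13 and Fars2 -0.10. Over the libraries left out in turn Mars2 ran from -0.28 (without HLI-4) to -0.097 (without HLI-1), and Yars2 from -0.24 (without HLI-5) to -0.037 (without HLI-3). Reads of Hars1 and Hars2, neighbouring genes of similar sequence, could be split between them by the authors' counting. Each had a fractional count in 1 library, Sham-2, at 766.37 and 396.63, and their sum there was whole within 0.005. In the other libraries both counts were already whole, so their sum there adds no information. Their levels are uncertain to that extent.

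The ratio of the cytosolic to the mitochondrial gene within a library does not depend on how libraries are scaled, but in TPM it depends on the transcript lengths behind the authors' values. It was lower in HLI for 8 of the 17 pairs and higher for 9, with a median difference of 0.06 in log2 TPM and 0 pairs without overlap. The pair that differed most was tyrosine. The log2 ratio of Yars to Yars2 was 1.20 ± 0.15 in Sham and 0.69 ± 0.39 in HLI (SD, n = 5). In HLI-1 it was 1.35, at the top of the Sham range of 0.99 to 1.34, and in the other 4 HLI libraries it was 0.34 to 0.68, below all of Sham. On counts the gap was smaller, with fitted log2 fold changes of -0.48 for Yars and -0.14 for Yars2.

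Scores over the members showed the same libraries apart. The cytosolic score was -0.06, 0.19, 0.16, 0.09 and 0.10 in Sham-1 to Sham-5 and 0.13, -0.13, -0.37, 0.06 and -0.17 in HLI-1 to HLI-5. The mitochondrial score was -0.05, 0.14, 0.07, 0.10 and 0.18 in Sham and -0.03, -0.08, -0.32, 0.10 and -0.09 in HLI. In both, Sham-1 was the lowest Sham library, HLI-3 the lowest of all, and the groups overlapped. The difference between the scores was 0.16 in HLI-1 and between -0.09 and 0.09 in the other 9 libraries.

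**Figure D5:**
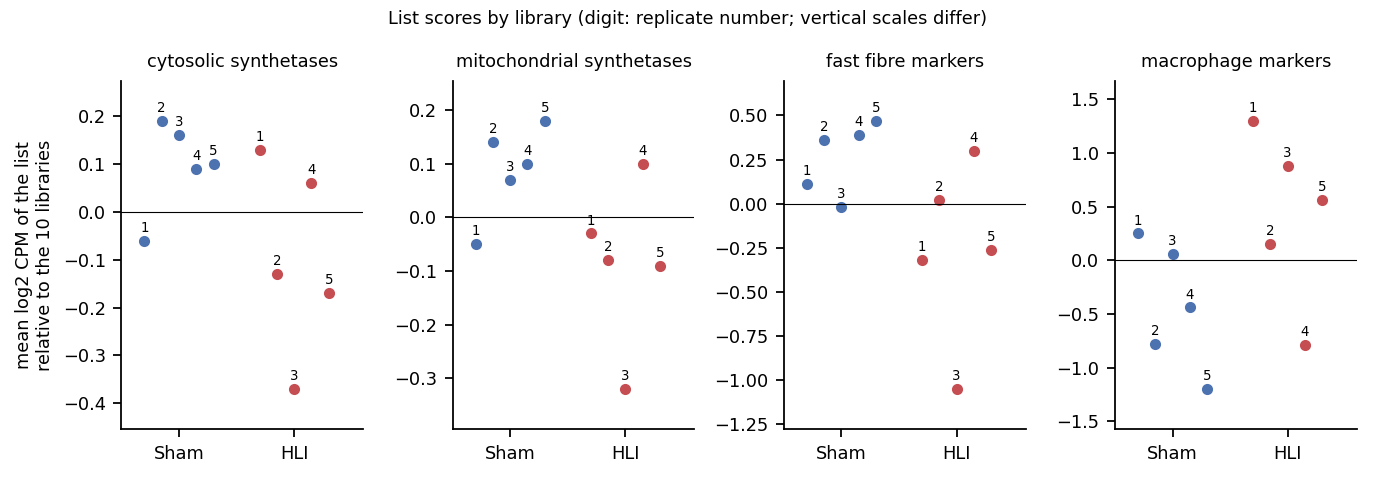
Scores (mean log2 CPM, each gene centred on its 10-library mean) of the cytosolic and mitochondrial members and of fast fibre and macrophage markers, with a numbered point for each library. HLI-3 has the lowest synthetase and fast fibre scores, and the Sham and HLI libraries overlap; on the unscaled TPM scale the median difference of the cytosolic members is 0.071.

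Subgroups of the cytosolic enzymes differed little, and none was tested as a group. The median log2 fold change was -0.20 over 10 class I genes and -0.12 over 10 class II genes. It was -0.14 over the 8 enzymes of the multisynthetase complex and -0.17 over the 12 outside it. On log2(TPM + 1) these medians were 0.027, 0.071, 0.088 and 0.019. The 3 scaffolds of the complex had values of -0.19 (SE 0.10) for Aimp1, -0.39 (SE 0.21) for Aimp2 and -0.11 (SE 0.13) for Eef1e1, with 0 of 3 at an unadjusted p under 0.05, and on log2(TPM + 1) 1 of 3 was below 0. Among 8 tested synthetase-like and editing proteins, whose median was -0.064 and on log2(TPM + 1) 0.15, 1 had an unadjusted p under 0.05: Aarsd1, which removes serine wrongly joined to alanine transfer RNA, at 24.4 ± 2.50 CPM for Sham against 19.6 ± 3.47 for HLI, a log2 fold change of -0.31 with SE 0.14. Without HLI-3, and on log2(TPM + 1), 0 of 8 had.

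On the CPM scale 12 of the 13 cytosolic members listed as ATF4 targets were below 0, beside 46.2% of all genes tested and 32 of all 37 members. Of the 13, 4 were lower at an unadjusted p under 0.05 by edgeR, beside 6.15% of all genes. On log2(TPM + 1) 7 of the 13 were below 0, beside 3243 of 13404 genes tested. The median of the listed members was -0.22, against -0.095 over the 7 cytosolic members not listed. On log2(TPM + 1) these medians were -0.029 and 0.11. Without HLI-3 they were -0.14 and -0.086 on the CPM scale. Atf4 itself stood at 141, 211, 163, 192 and 213 CPM in the Sham libraries and 155, 127, 74.0, 128 and 119 CPM in HLI. HLI-1 was the only HLI library inside the Sham range, and the log2 fold change was -0.61 (SE 0.19) with an unadjusted p of 0.00696 and an adjusted p of 0.29 by edgeR. Messenger RNA of Atf4 does not measure its protein, which is controlled mainly in translation. Among 25 tested genes of this pathway other than synthetases the median was -0.047. By edgeR 6 of the 25 were lower and 1 higher at an unadjusted p under 0.05, beside 6.15% and 10.7% of all genes. On log2(TPM + 1) 2 were lower and 1 higher, beside 267 and 2271 of 13404 genes. Lower by edgeR besides Atf4 were Gpt2 (-0.66), which makes alanine, the transcription factor Atf5 (-0.50), Chac1 (-1.33), which breaks down glutathione, and the stress-induced Ddit3 (-0.49) and Nupr1 (-0.39). Higher was Ddit4 (0.90), an inhibitor of mTORC1 signalling, at 8.11 ± 1.06 CPM for Sham against 15.1 ± 8.75 for HLI. Asns, which makes asparagine and is a standard ATF4 target, had a log2 fold change of 0.038 (SE 0.32). Of 7 tested cytosolic elongation factor genes 5 were below 0 on the CPM scale, with a median of -0.10, and 2 on log2(TPM + 1). At an unadjusted p under 0.05 by edgeR was 1 of the 7, Eef1a1, which was higher in HLI. It stood at 1937 ± 363 CPM for Sham against 2805 ± 787 for HLI, a log2 fold change of 0.53 (SE 0.22). Without HLI-3, where Eef1a1 was highest, 0 of 7 had such a p.

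Of the marker lists of other cell types 0 genes were called by edgeR, and no list was tested as a whole. Over all genes tested 46.2% were below 0, and at an unadjusted p under 0.05 by edgeR 10.7% were higher and 6.15% lower. Without HLI-3, 691 of 13404 genes were higher at that p, and on log2(TPM + 1) 1.99% were lower. All 12 macrophage markers were above 0, 8 of them at an unadjusted p under 0.05 (3 without HLI-3), and their summed level was 693 to 1949 TPM in Sham and 901 to 4613 in HLI. Of 18 cell cycle genes 17 were above 0, 15 at an unadjusted p under 0.05. Of 12 fast fibre markers 11 were below 0 with a median of -0.50, 5 at an unadjusted p under 0.05 (1 on log2(TPM + 1)), among them Tnnt3 (-0.58), Actn3 (-0.59), Ckm (-0.59) and Tnni2 (-0.55). Fibroblast markers were above 0 in 7 of 8, endothelial markers in 6 of 8 and erythroid markers in 6 of 6, while the 6 adipocyte markers were below 0, or 5 of 6 on log2(TPM + 1). Of the adipocyte markers 0 had an unadjusted p under 0.05 by edgeR. Their score was -2.17 in HLI-4 and -0.84 in HLI-3, against 0.02 to 0.64 in the other HLI libraries. The 5 tested neutrophil markers had a median of -0.19, with 0 at an unadjusted p under 0.05, and the 4 tested lymphocyte markers were above 0, 3 of them at an unadjusted p under 0.05 (1 without HLI-3). The part of these shifts in the synthetase values was not tested. Without HLI-3, whose fibre score was lowest, 29 of 37 members were below 0, and 3 cytosolic members (Aars, Mars1 and Yars) were lower at an unadjusted p under 0.05, beside 3.46% of all genes in that fit.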

How the data were processed

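Poly(A) RNA of whole gastrocnemius was sequenced as paired-end Illumina libraries, per the labels' protocols; the series text speaks of cells and of another reagent and company, and the sample protocol of adipose material, so the extraction is uncertain. HISAT2 2.0, Bowtie 0.12.2 and mm8 appear without roles in the submitters' processing notes. For the counter, the annotation and strandedness, the tool or setting is not given in the sources used here. The authors deposited estimated counts (93.4% whole, not normalized) and TPM values, which sum to 1000000 per library, per the file headers.

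Estimated counts were rounded and tested in R 4.3.3 with edgeR 4.0.16 (quasi-likelihood test, TMM scaling, filterByExpr at its minimum count 10 and minimum total count 15, no covariate), with Benjamini-Hochberg adjustment over 13404 genes at 0.05. CPM values use the TMM-scaled library sizes; scores use log2 CPM with a prior count of 2. The script was tested on simulated data. Alternatives were DESeq2 1.42.0, limma 3.58.1 on log2(TPM + 1) and log2(TPM + 0.1), other scalings and filters, a replicate block and each library left out; limma on TPM with median-of-ratios scaling was added after the data were seen.

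The members and lists were chosen with earlier results of these data known. Every member is named except 1, which enters the counts and medians but is not reported here on its own. Library values are given for the 6 cytosolic and 4 mitochondrial members with the smallest p and for Wars1, Gars, Kars, Eprs, Qars and Ears2. From other lists, at most 4 genes at an unadjusted p under 0.05 were picked for naming, by smallest p. Chac1, Ddit3 and Nupr1 of the ATF4 pathway are named beyond those 4. Asns, Chac1, Ddit3, Nupr1, Hars1, Vars, Farsa, Dars and the scaffolds were described further after their values were seen. Promoter windows are RefSeq, build GRCm38.p6, matched by symbol.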

Additional observations from a re-analysis of the deposited data

Results flagged for a closer look

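Within a group of 5 libraries, a highest or lowest value was marked where its gap to the next exceeded 0.71 of the group's range. Of 78 such groups checked, 6 were marked; chance marks about 1 in 20. Cars was low in Sham-1, at 29.7 CPM, with the other Sham libraries between 40.6 and 42.6. Eprs was high in HLI-4, at 217 CPM, against 144 to 161 in the other HLI libraries. Gars was marked in both groups, in Sham-2 at 101.7 CPM against 88.5 to 90.1, and in HLI-1 at 108 CPM against 76.8 to 80.3. Hars1 was high in HLI-1, at 47.6 CPM against 33.9 to 36.9. Vars was high in HLI-1 as well, at 51.8 CPM against 34.4 to 36.8. HLI-1 accounted for 3 of the 6.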

How the results depend on the processing

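Calls stayed at 0 of 37 members under every setting run, with a lowest adjusted p of 0.092 (without HLI-4) to 0.57. Over all genes edgeR called 0 and DESeq2 45. Of 703 member results under alternatives 651 kept their sign and side of the threshold and 52 changed sign, none of them past it.

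The count of cytosolic members lower at an unadjusted p under 0.05, 5 in the edgeR fit, was 3 with the replicate block, 2 after quantile normalization, 0 on both unscaled TPM settings, and 0 to 9 with 1 library left out (0 without Sham-2, 1 without Sham-5, 2 without HLI-5, 3 without Sham-3, HLI-2 or HLI-3, and 9 without HLI-1). The mitochondrial count, 0, ran from 0 to 3 (3 without HLI-4, where 14.5% of all genes were lower at that p). Members below 0 on both unscaled TPM settings numbered 9 cytosolic and 7 mitochondrial, and 15 to 19 and 14 to 17 with a library left out. The cytosolic median was then 0.071 and 0.072, and -0.227 to -0.118 with a library left out; the mitochondrial median was 0.019 and 0.021, and -0.231 to -0.132. The median of all genes was 0.185 and 0.214 on those scales. The difference of the medians, 0.022, was 0.16 after quantile normalization and ran from -0.063 (without HLI-1) to 0.037.

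Among the members named, signs changed on log2(TPM + 1) and log2(TPM + 0.1), in this order, for Eprs (0.082, 0.084), Fars2 (0.049, 0.051), Farsa (0.107, 0.112), Gars (0.066, 0.067), Hars2 (0.070, 0.076), Iars2 (0.050, 0.052), Lars (0.193, 0.201), Mars2 (0.013, 0.016), Nars (0.077, 0.078), Qars (0.125, 0.126), Rars (0.093, 0.095), Sars2 (0.105, 0.115), Tars (0.099, 0.103), Tars2 (0.030, 0.031) and Yars2 (0.176, 0.186). Quantile values were 0.00090 for Lars, 8.6e-05 for Qars and -0.0044 for Nars2. Nars2 was -0.0026 with the block, -0.0075 without the filter, -0.011 with DESeq2 size factors and -0.014 in DESeq2. With a library left out, sign-changing ranges were -0.045 to 0.158 for Dars, -0.169 to 0.0067 for Farsa, -0.027 to 0.105 for Hars1, -0.092 to 0.0275 for Lars, -0.083 to 0.061 for Nars2, -0.035 to 0.098 for Rars2, -0.147 to 0.053 for Sars2 and -0.068 to 0.0985 for Vars. Beyond the scaling itself, the cause was not tested.

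The replicate numbers were not treated as pairs: correlations of same-numbered libraries were 0.00012, 0.18, 0.28, 0.19 and -0.0090, and 2 of 5 numbers correlated best with their own partner.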

Other observations

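The ratio of TPM to CPM of a gene should vary between libraries only through their composition and the transcript length used. The spreads given here leave out the shift of this ratio that the genes of a library share. That shift was larger: Aars, with a spread of 1.01-fold, had 25.8 TPM at 63.3 CPM in HLI-3 and 28.9 TPM at 100 CPM in HLI-4. Over the members the highest value of the remaining ratio exceeded its lowest 1.08-fold in the median, against 1.06-fold over all genes tested. It spread 2.14-fold for Wars2, 2.09-fold for Pars2, 1.54-fold for Rars2, 1.50-fold for Qars, 1.43-fold for Nars2 and 1.39-fold for Yars2. Wars2 stood at 7.48 TPM in Sham-3 and at 2.55 to 3.54 TPM in the other Sham libraries, while its CPM in Sham-3 was 8.68 against 6.49 to 7.61. The TPM level of these genes, and the ratios of the pairs they belong to, are less certain than those of the other members. Iars2 had a fractional count in 10 libraries and Cars2 in 2.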
